A study of Mus musculus with 3 samples.

Results

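Foxp3 occupancy over 10 genes of alternative activation and tissue repair was examined in mouse bone marrow-derived macrophages. The genes were Il4ra, Arg1, Mrc1, Chil3, Retnla, Pparg, Il10, Tgfbr2, Igf1 and Vegfa, out of 21627 genes classed as protein-coding on chromosomes 1 to 19 and X. For each gene, all peaks that touched the gene or the 5 kb beyond either end were taken, which gave 133 of the 556535 peaks of replicate 1 and 25 of the 95135 peaks of replicate 2. The rule uses gene names and positions and no measured value, though it was proposed with results of these data known.

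Occupancy had been assayed by CUT&RUN, in which an antibody tethers a nuclease to its target protein and the DNA fragments released there are sequenced. Both Foxp3 libraries were made with the same antibody from macrophages cultured in M-CSF-conditioned medium and fixed with 0.1% formaldehyde, and the series title says that the macrophages were stimulated with molecules released from damaged brain. A single isotype IgG library completes the 3 samples, and no values of it were used here, so how these sites behave without the Foxp3 antibody was not tested. Each peak carries 2 deposited values of strength, the number of fragments over its summit and the fold enrichment. The fold enrichment is that number plus 1, divided by a background estimated from the same library plus 1. The labels used here give neither the mouse strain, age or genotype nor which libraries were stimulated, and they do not say whether the replicates were separate cultures, so the spread between them may be technical.

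Macrophages exposed to interleukin 4 or interleukin 13 enter the state called alternative activation. The cytokines bind a receptor that contains the chain encoded by Il4ra, the receptor activates the transcription factor Stat6, and Stat6 switches on a set of genes that includes Arg1, Mrc1, Chil3 and Retnla in the mouse. Macrophages in this state, and those exposed to interleukin 10 or TGF-beta, take part in clearing debris and rebuilding tissue, partly through secreted growth factors such as those encoded by Igf1 and Vegfa. Foxp3 belongs to the forkhead family of DNA-binding proteins and is the defining factor of regulatory T cells.

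The members split by where the replicates put their peaks. Peaks of both replicates met at the annotated start of Il4ra, Tgfbr2 and Pparg, in the body of Mrc1 and just inside the start of Vegfa. Arg1 and Retnla had peaks in replicate 1 and none in replicate 2, and in Chil3, Il10 and Igf1 the peaks of the replicates lay apart. The promoter sequences of 6 entries are shown first, 4 that carried a peak of both replicates and, for contrast, those of Mrc1 and Retnla, which carried none. They are the 250 bases before the start in the RefSeq promoter table of GRCm38.p6, whose coordinates are those of mm10, and are written in the direction of transcription. Peaks of replicates 1 and 2 covered 250 and 194 of the printed bases of Il4ra and 12 and 148 of those of Tgfbr2. They covered 250 and 207 at the upstream start of Pparg and 97 and 250 at its next start. Capitals mark matches to the sequence words described after the sequences. The entries are Il4ra at chr7:125552021-125552270 on the plus strand, Tgfbr2 at chr9:116175364-116175613 on the minus strand, the upstream start of Pparg at chr6:115360894-115361143 and its next start at chr6:115362099-115362348, both on the plus strand, Mrc1 at chr2:14229164-14229413 on the plus strand and Retnla at chr16:48842359-48842608 on the plus strand.
Il4ra: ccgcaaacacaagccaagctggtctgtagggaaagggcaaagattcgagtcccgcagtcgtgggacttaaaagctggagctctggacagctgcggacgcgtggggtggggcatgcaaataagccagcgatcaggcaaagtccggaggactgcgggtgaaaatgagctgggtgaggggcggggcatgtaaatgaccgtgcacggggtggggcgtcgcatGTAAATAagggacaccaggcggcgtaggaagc
Tgfbr2: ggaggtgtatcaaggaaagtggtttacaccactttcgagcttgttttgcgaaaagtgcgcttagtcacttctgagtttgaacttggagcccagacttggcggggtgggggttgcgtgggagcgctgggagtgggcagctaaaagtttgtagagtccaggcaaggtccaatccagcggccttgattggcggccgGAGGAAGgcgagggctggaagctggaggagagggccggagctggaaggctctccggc
Pparg, upstream start: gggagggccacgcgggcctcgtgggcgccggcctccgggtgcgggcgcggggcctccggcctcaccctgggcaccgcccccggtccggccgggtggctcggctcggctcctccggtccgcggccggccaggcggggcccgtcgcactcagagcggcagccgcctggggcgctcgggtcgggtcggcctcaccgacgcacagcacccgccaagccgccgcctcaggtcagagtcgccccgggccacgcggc
Pparg, next start: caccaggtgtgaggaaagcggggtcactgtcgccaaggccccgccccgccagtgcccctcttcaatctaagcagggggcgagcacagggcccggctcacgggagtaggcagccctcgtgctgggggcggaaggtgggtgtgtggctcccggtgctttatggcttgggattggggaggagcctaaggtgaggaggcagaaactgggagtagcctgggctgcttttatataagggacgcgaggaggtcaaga
Mrc1: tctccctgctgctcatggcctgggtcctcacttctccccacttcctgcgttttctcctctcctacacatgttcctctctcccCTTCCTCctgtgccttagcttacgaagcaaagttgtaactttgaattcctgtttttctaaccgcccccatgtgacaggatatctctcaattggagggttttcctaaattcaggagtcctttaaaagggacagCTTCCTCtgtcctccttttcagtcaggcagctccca
Retnla: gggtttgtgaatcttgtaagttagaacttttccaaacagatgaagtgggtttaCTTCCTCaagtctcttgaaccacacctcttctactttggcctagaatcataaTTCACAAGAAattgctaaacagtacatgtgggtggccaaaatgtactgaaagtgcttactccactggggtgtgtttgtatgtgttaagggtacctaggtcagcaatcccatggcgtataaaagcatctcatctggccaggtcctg

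The table held 11 promoter entries for 8 of the members, and Arg1 and Il10 were not matched. In the full entries of 300 bp, which run from 250 bases before to 50 bases after the start, a peak of replicate 1 was present in 5 of 11, of replicate 2 in 4 and of both in 4. Over all 32619 entries on these chromosomes the percentages were 50.2, 35.5 and 31.7. The 4 entries with both belonged to Il4ra, Tgfbr2 and Pparg, and the fifth was the internal start of Vegfa, in replicate 1 alone. The promoters of Mrc1, Chil3, Retnla and Igf1 and the outer start of Vegfa had no peak in either list. The printed sequence of the upstream start of Pparg was 82.4% G and C with 38 CG pairs, and its next start had 63.6% and 12. Il4ra had 59.6% and 17 CG pairs and Tgfbr2 58.4% and 12. Among promoters without a peak, Retnla had 42.8% and 1 CG pair, Mrc1 49.6% and 3, and Chil3 36.4% and 3. The third Pparg start had 40.8% and 2, while Igf1 had 52.8% and 5 and the outer start of Vegfa reached 59.2% and 11. The median over all entries was 52.4% G and C, and over entries with a peak of both replicates 64.4%.

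Sequence words were searched on both strands of the full entries. The forkhead word TGTTTAC was found in none of the 11 entries, against 3.67% of all entries. A run of 3 direct TTTG copies, TTTGTTTGTTTG, was in none of them either, against 0.635% of all. A second forkhead word, TATTTAC, was added after the sequences had been seen. It matched Il4ra only, from 32 bases before the start, and 3.06% of all entries held it. The PU.1 core GAGGAAG occurred in Mrc1 (at 2 places), Tgfbr2, Igf1 and Retnla, against 13.4% of all entries. In Tgfbr2 it began 57 bases before the start, outside the replicate 1 peak and inside the replicate 2 peak. The Stat6 word TTCNNNNGAA occurred in Retnla alone, 145 bases before the start, against 6.99%, and the AP-1 word TGANTCA in Igf1 alone, against 7.85%. No word matched in either printed Pparg promoter. These are letter matches in short windows and describe the sequence only.

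**Figure D1:**
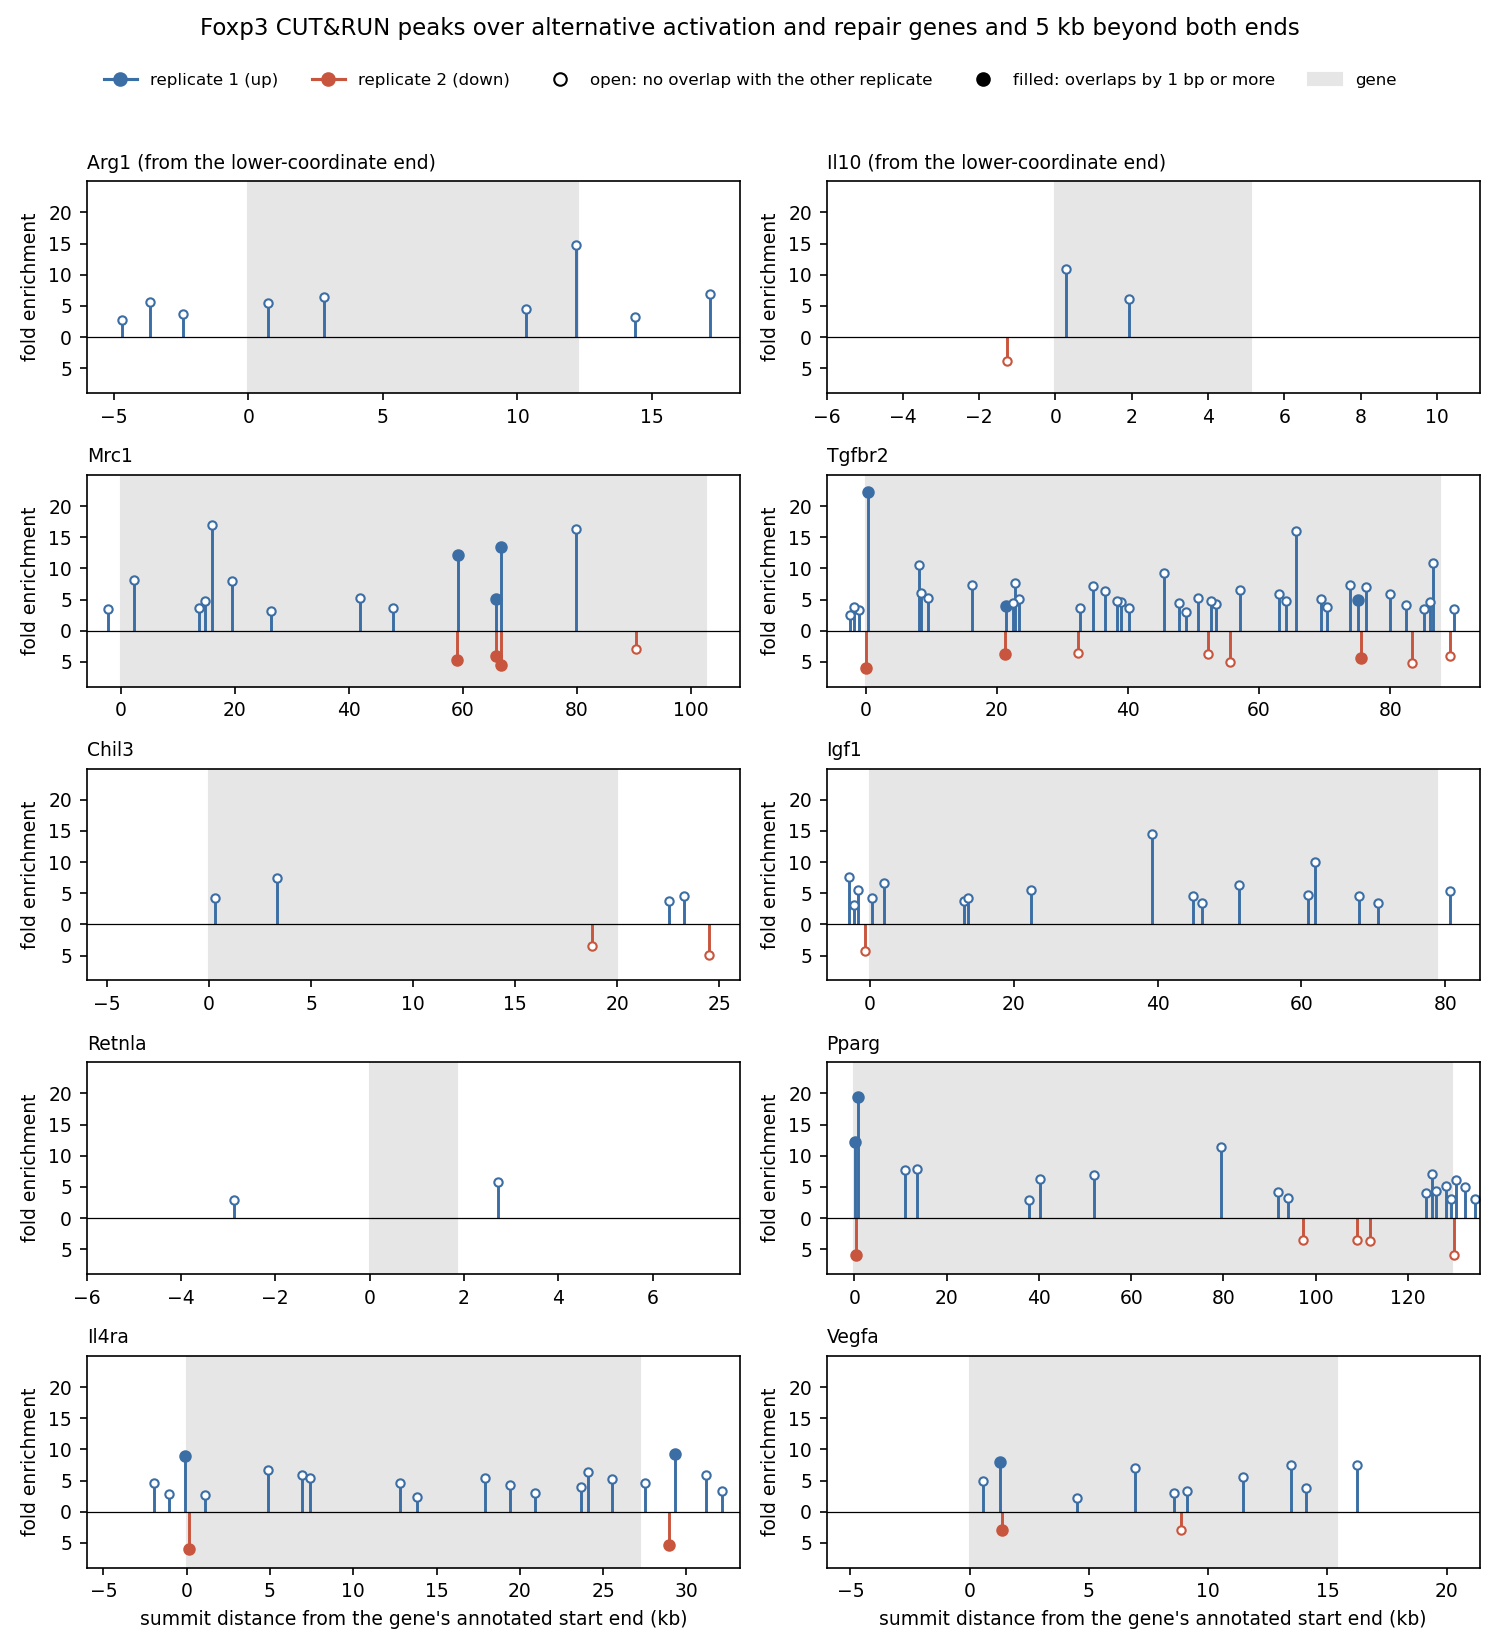
Position and strength of every peak over the 10 genes and the 5 kb beyond both ends. The horizontal axis is the distance of the peak summit from the annotated start end of the gene in kb (from the lower-coordinate end for Arg1 and Il10), the vertical axis is the deposited fold enrichment, with replicate 1 drawn upwards and replicate 2 downwards, and grey marks the gene. Filled points overlap a peak of the other replicate by at least 1 bp, and they occur in Mrc1, Il4ra, Tgfbr2, Pparg and Vegfa.

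Every member had a peak in replicate 1, and 8 of 10 had one in replicate 2. The same held for 96.6% and 83% of all protein-coding genes. An overlap between replicates of 1 bp or more occurred in 5 of the 10 members, against 75.9% of all genes. Overlap of at least 50% of both lengths, called a shared peak below, was found in 2 of 10, Mrc1 and Tgfbr2, against 63.5% of all genes. No test was made of these counts, since the members were chosen with results of these data known and 2 libraries with no IgG values allow no test between conditions. Their windows were 11853 to 139526 bp long with a median of 33607.5 bp, against a median of 27329 bp over all genes. Among genes with windows in that range, 98.4% had a peak in replicate 1, 87.4% in replicate 2, 79.8% an overlap of 1 bp and 65.9% a shared peak. Summits of the replicates lay within 100 bp of each other in 1 of 10 members, Mrc1, against 53.2% of all genes and 54.3% of those in that range.

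Of the 25 replicate 2 peaks over the members, 10 overlapped a replicate 1 peak (40.0%, 21.1 to 61.3%) and 4 were shared (16.0%, 4.54 to 36.1%). Over the windows of all protein-coding genes these percentages were 58.8 and 36.2. The intervals cover counting error only, and peaks of 1 gene are not independent. Replicate 2 peaks that overlapped replicate 1 had a median fold enrichment of 5.04 and a median length of 433 bp, and the 15 that did not had 3.78 and 282 bp. In replicate 1 the 11 overlapping peaks had medians of 9.29 and 507 bp, against 4.88 and 166 bp for the other 122. The summits of the 15 lone replicate 2 peaks lay 253 to 14838 bp from the nearest replicate 1 summit, with a median of 1133 bp.

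**Figure D2:**
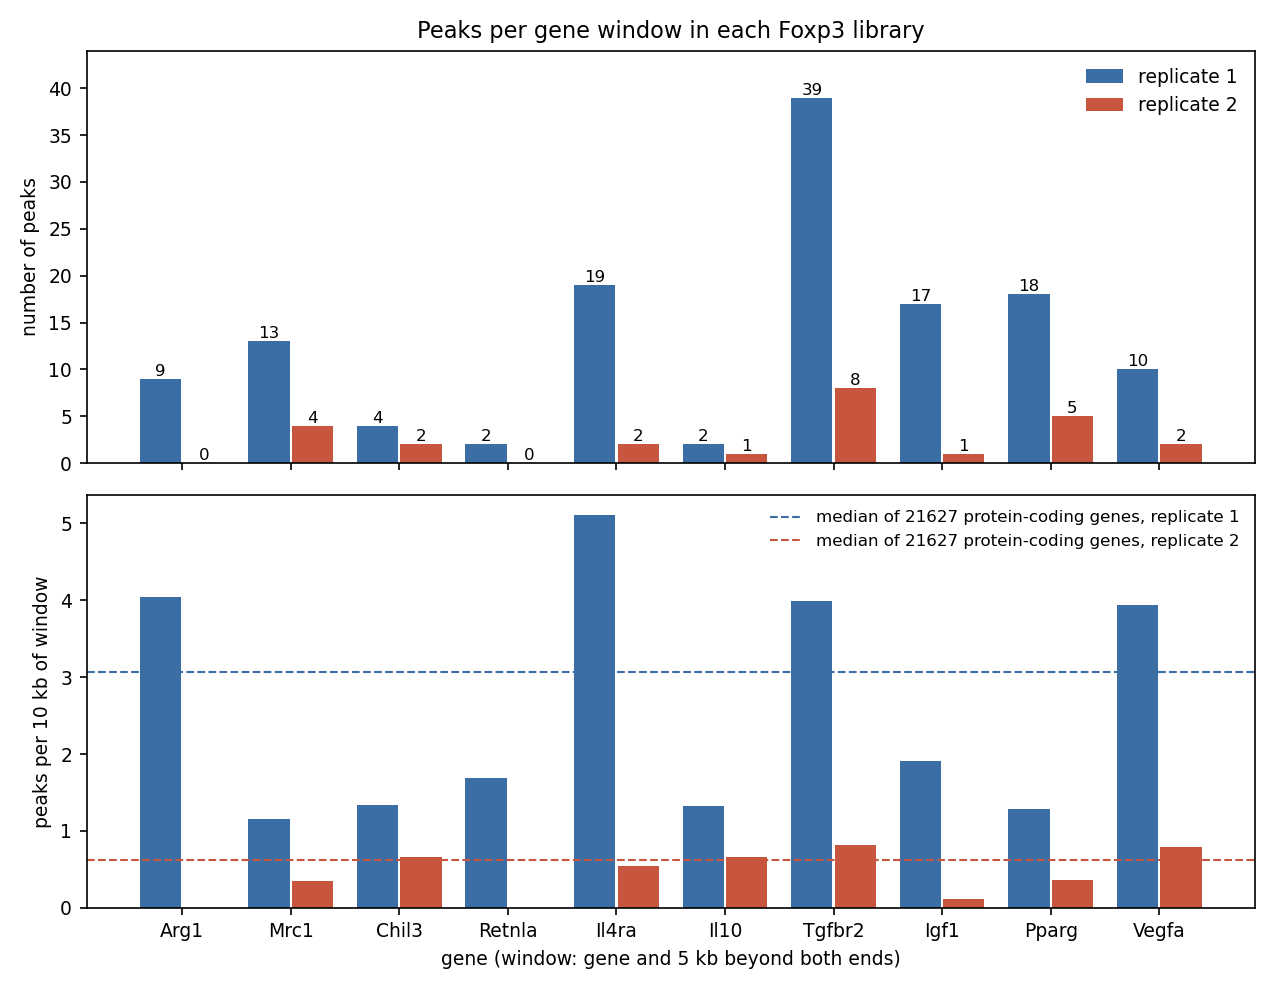
Number of peaks (upper panel) and peaks per 10 kb of window (lower panel) for each gene in replicate 1 (blue) and replicate 2 (red). Dashed lines give the median of 21627 protein-coding genes, 3.06 per 10 kb in replicate 1 and 0.616 in replicate 2. Il4ra, Arg1, Tgfbr2 and Vegfa stand above the replicate 1 line, and Tgfbr2, Vegfa, Chil3 and Il10 above the replicate 2 line. Chil3 and Il10 do so with only 2 and 1 replicate 2 peaks, in windows of 30011 and 15126 bp.

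Density separated the members differently from counts. In replicate 1, Il4ra had 5.11 peaks per 10 kb, Arg1 4.04, Tgfbr2 3.99 and Vegfa 3.94, and the other 6 had 1.15 to 1.91. Of all protein-coding genes, 87.1% had a density at or below that of Il4ra and 14.4% at or below that of Mrc1. In replicate 2, densities ran from 0 in Arg1 and Retnla to 0.788 in Vegfa and 0.819 in Tgfbr2. Summed over the windows, peaks covered 5.24% of the bases in replicate 1 and 1.71% in replicate 2, against 6.08% and 1.79% for all genes. The summit lay inside the gene for 78.2% of replicate 1 and 76.0% of replicate 2 peaks, and the genes made up 82.8% of the window length.

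Il4ra encodes the chain through which interleukin 4 and interleukin 13 signal. It spans chr7:125552271-125579474 (mm10, gene ID 16190) and had 19 peaks in replicate 1 and 2 in replicate 2. Both replicate 2 peaks overlapped a replicate 1 peak, and these were the 2 strongest replicate 1 peaks of the gene. At the start, the replicate 1 peak (125552012 to 125552330) had 42 fragments over its summit and a fold enrichment of 8.97, and the replicate 2 peak (125552077 to 125552607) had 35 fragments and 6.01 (mean 7.49 ± 2.09, SD, n = 2). The summits lay 128 bases before and 171 bases after the start, on opposite sides of it, and the peaks covered 250 and 194 of the 250 bases printed above. The overlap was 254 bp, or 47.8% of the longer peak, just under the 50% required. The other pair lay beyond the far end, with summits 29308 and 28977 bp from the start, 81 and 32 fragments, and fold enrichments of 9.29 and 5.37 (mean 7.33 ± 2.77, SD, n = 2). It overlapped by 44.7% of the longer peak. Il4ra peaks also sat on a raised background. The value implied by pileup and fold is the background plus 1. It was more than 1.1 times its genome-wide level in the library for all 19 replicate 1 peaks and both replicate 2 peaks. The same held for 36.8% and 32.1% of all peaks. In Il4ra it reached 2.98 times that level in replicate 1.

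Of the 4 effector genes, Mrc1 had peaks of both replicates at the same places, and Arg1, Chil3 and Retnla had no overlapping pair. Mrc1 encodes the mannose receptor CD206, a lectin of the macrophage surface. It spans chr2:14229414-14332023 (gene ID 17533), carries Mir511 within it, and had 13 peaks in replicate 1 and 4 in replicate 2. Its 3 overlapping pairs were all shared peaks and lay between 58965 and 66713 bp from the start, deep in the gene. The first had 45 and 23 fragments and fold enrichments of 12.2 and 4.71 in replicates 1 and 2 (mean 8.44 ± 5.27, SD, n = 2). The second had 23 and 20 fragments and 5.07 and 4.12 (mean 4.60 ± 0.670, SD, n = 2), and it was the pair of closest strength in this gene. The third spanned 14295829 to 14296524 in replicate 1, began at 14295841 in replicate 2, and had 63 and 27 fragments and 13.4 and 5.50 (mean 9.47 ± 5.61, SD, n = 2). Its peaks ended at the same base, overlapped by 98.3% of the longer one and had summits 69 bp apart, the closest match over any member. The strongest replicate 1 peaks of Mrc1, at 16033 and 79913 bp from the start with fold enrichments of 17.0 and 16.4, had no counterpart in replicate 2.

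Arg1 encodes arginase, which turns arginine into ornithine and urea and draws it away from nitric oxide synthesis. It spans chr10:24915207-24927470 (gene ID 11846). Replicate 1 had 9 peaks, whose fold enrichment ranged between 2.67 and 14.8 (median 5.40), and replicate 2 had none. The strongest, from 24927299 to 24927520 with 55 fragments, lay across the higher-coordinate end of the gene. That end lies within the long noncoding RNA gene Gm40616, so the peak could not be assigned to Arg1 alone. The nearest replicate 2 peak was 44.9 kb below Arg1, over Med23, a Mediator subunit gene, where both replicates shared a peak of 17.5 and 6.09.

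Chil3 encodes the chitinase-like protein Ym1, and Retnla the secreted resistin-like protein RELM alpha. Both belong to families with similar neighbours in the genome, and where copies resemble each other reads may be assigned to the wrong one, so their values are uncertain. Chil3 (chr3:106147554-106167564, gene ID 12655) had 4 peaks in replicate 1, with 15 to 27 fragments and fold enrichments from 3.74 to 7.41. Replicate 2 had 2 peaks there, with 17 and 24 fragments and 3.53 and 4.86. None overlapped. Both replicate 2 summits were near the far end, 18761 and 24474 bp from the start. Replicate 1 also had 2 summits there, 22549 and 23256 bp from the start, while its strongest was at 3339 bp. Retnla (chr16:48842609-48844461, gene ID 57262) had 2 peaks in replicate 1, of 10 and 21 fragments and fold enrichments of 2.91 and 5.82, both outside the gene. Replicate 2 had none within 10 kb, and its nearest peak, of 3.14, was 10.2 kb below the gene. Of all protein-coding genes, 10.0% had no replicate 1 peak or a strongest one at or below that of Retnla.

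Pparg encodes the nuclear receptor PPAR gamma, a lipid-sensing regulator of alternative activation and of fat cells. It spans chr6:115360879-115490404 (gene ID 19016) and had 18 peaks in replicate 1 and 5 in replicate 2. At its start, 1 replicate 2 peak of 1502 bp (115360937 to 115362438) covered both upstream starts and overlapped 2 separate replicate 1 peaks. Those had 65 and 103 fragments and fold enrichments of 12.3 and 19.5, and the replicate 2 peak had 31 fragments and 5.88. Because it was longer than either, it overlapped them by only 23.8% and 33.8% of its length, and Pparg was not counted among genes with a shared peak. The other replicate 2 peaks had fold enrichments of 3.53 to 5.89 and no overlap with replicate 1, and the strongest of them lay just beyond the far end, 341 bp from the nearest replicate 1 summit. The internal start, which is the third promoter entry, had no peak in either list.

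Il10 encodes the anti-inflammatory cytokine interleukin 10. It spans chr1:131019845-131024970 (gene ID 16153), a gene with few peaks. Replicate 1 had 2, with summits 266 and 1922 bp inside the lower-coordinate end, 40 and 23 fragments and fold enrichments of 10.8 and 6.04. Replicate 2 had 1, with its summit 1265 bp outside that end, 19 fragments and 3.93. The summits nearest to each other were 1531 bp apart, so no peaks of the replicates overlapped at this gene.

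Tgfbr2 encodes the ligand-binding receptor chain for TGF-beta, whose signals restrain inflammation and promote matrix deposition. It spans chr9:116087695-116175363 (gene ID 21813) and had the most peaks of the 10 genes, 39 in replicate 1 and 8 in replicate 2. Its site at the start had the highest fold enrichment of any member in both lists. The replicate 1 peak (116174905 to 116175375) had 185 fragments and 22.2, and the replicate 2 peak (116174707 to 116175511) had 38 fragments and 6.06 (mean 14.1 ± 11.4, SD, n = 2). Of all peaks in the lists, 99.7% and 90.6% had an equal or lower fold. The background plus 1 implied at this site was 8.37 and 6.44 fragments, against genome-wide levels of 3.78 and 5.09. In Tgfbr2 20 of the 39 replicate 1 peaks and 2 of the 8 replicate 2 peaks stood on a background raised by more than 1.1 times. The same held for 36.8% and 32.1% of all peaks. The replicate 1 summit lay 352 bases after the start and the replicate 2 summit 4 bases after it, and the overlap was 471 bp, the whole of the replicate 1 peak. The long noncoding RNA gene Gm40582 begins 281 bp beyond Tgfbr2, so a site here lies close to both. Inside the gene, 2 weaker pairs overlapped by 23.0% and 23.2% of the longer peak, with fold enrichments of 4.98 and 4.32 at 75050 bp and of 3.97 and 3.73 at 21382 bp. In the last of these replicate 2 had the larger pileup, 18 fragments against 14, the only such pair over the members. The second strongest replicate 1 peak, of 16.0 at 65607 bp, had no replicate 2 summit within 9954 bp.

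Igf1 and Vegfa encode secreted growth factors, insulin-like growth factor 1 and vascular endothelial growth factor A. Igf1 (chr10:87858265-87937047, gene ID 16000) had 17 peaks in replicate 1 and 1 in replicate 2. The strongest replicate 1 peak, 39213 bp inside the gene, had 54 fragments and a fold enrichment of 14.5. The replicate 2 peak, of 21 fragments and 4.32, had its summit 652 bp before the annotated start end, within the antisense gene Igf1os, with the closest replicate 1 summit 964 bp away. The nearest shared peak was 126 kb from Igf1, the farthest for any member. Vegfa (chr17:46016993-46032377, gene ID 22339) had 10 peaks in replicate 1 and 2 in replicate 2. Its overlapping pair lay 1258 and 1370 bp inside the start, with 85 and 28 fragments but fold enrichments of only 7.92 and 2.96 (mean 5.44 ± 3.51, SD, n = 2). The background plus 1 implied there was 10.9 and 9.81 fragments, against genome-wide levels of 3.78 and 5.09 for the same quantity. All 10 replicate 1 and both replicate 2 peaks of Vegfa stood on a background raised by more than 1.1 times. In replicate 2 only 7.36% of peaks had a fold as low as that of the Vegfa pair, although its pileup was above the list's median of 21. For Vegfa, therefore, fold enrichment and fragment number rank the same peak differently.

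**Figure D3:**
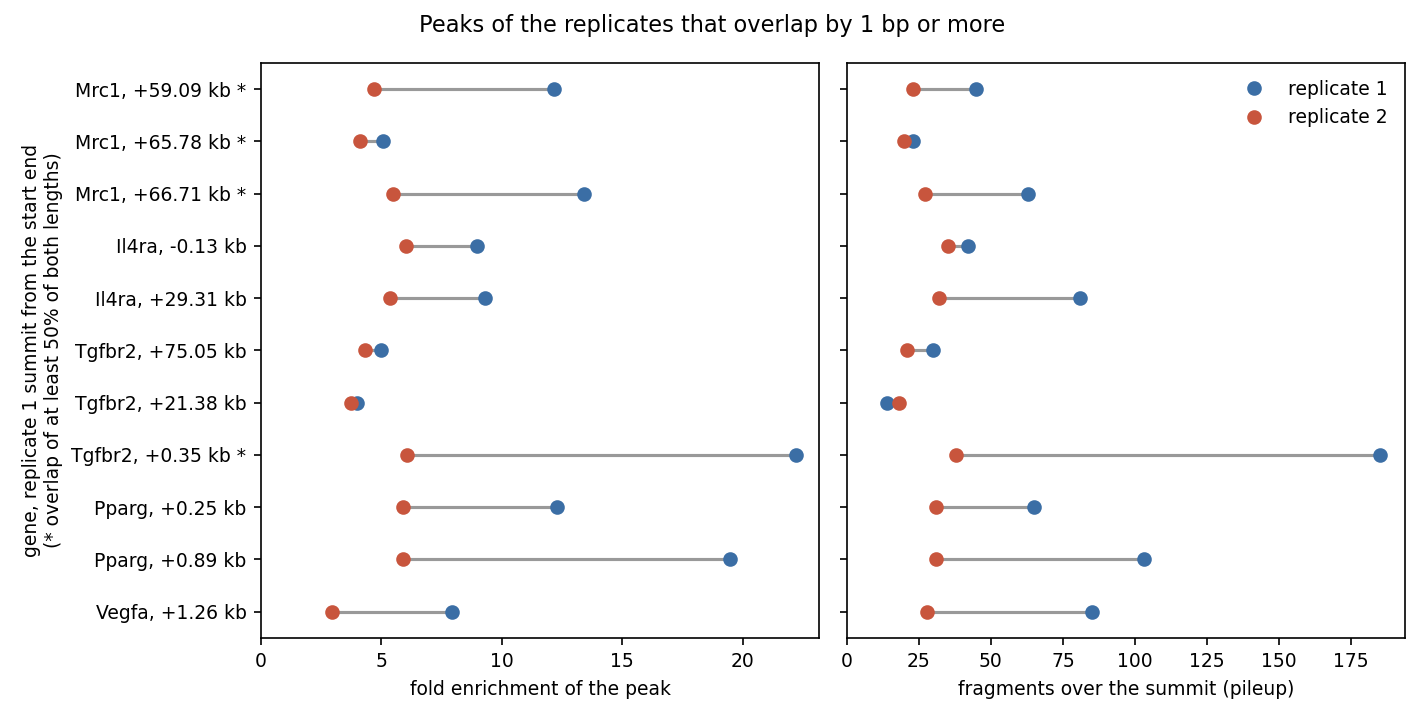
The 11 pairs of peaks that overlapped between replicates, with fold enrichment (left) and fragments over the summit (right) on linear axes for replicate 1 (blue) and replicate 2 (red). Asterisks mark the 4 shared pairs, and labels give the replicate 1 summit in kb from the start end. Replicate 1 had the higher fold in all 11 pairs, with a genome-wide background plus 1 of 3.78 fragments against 5.09 in replicate 2. The start of Tgfbr2 shows the widest gap.

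Across the 11 pairs, in which 1 Pparg peak of replicate 2 counts in 2, replicate 1 had the higher fold enrichment in all 11. The ratio of replicate 1 to replicate 2 ran from 1.06 to 3.67 with a median of 2.09. Median fold over all peaks was 4.92 in replicate 1 and 3.99 in replicate 2, from 33294105 and 34898401 fragments. The fragment size given for the libraries was 130 and 180 bp, and the genome-wide background plus 1 was 3.78 and 5.09 fragments. At that background the same pileup gives a higher fold in replicate 1, so fold is not on the same scale in both lists. The part of this in the higher folds of the pairs was not tested. Weaker sites than 10 fragments in replicate 1 and 13 in replicate 2 were not listed anywhere, so a member without a peak is one whose signal did not reach the caller's threshold.

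**Figure D4:**
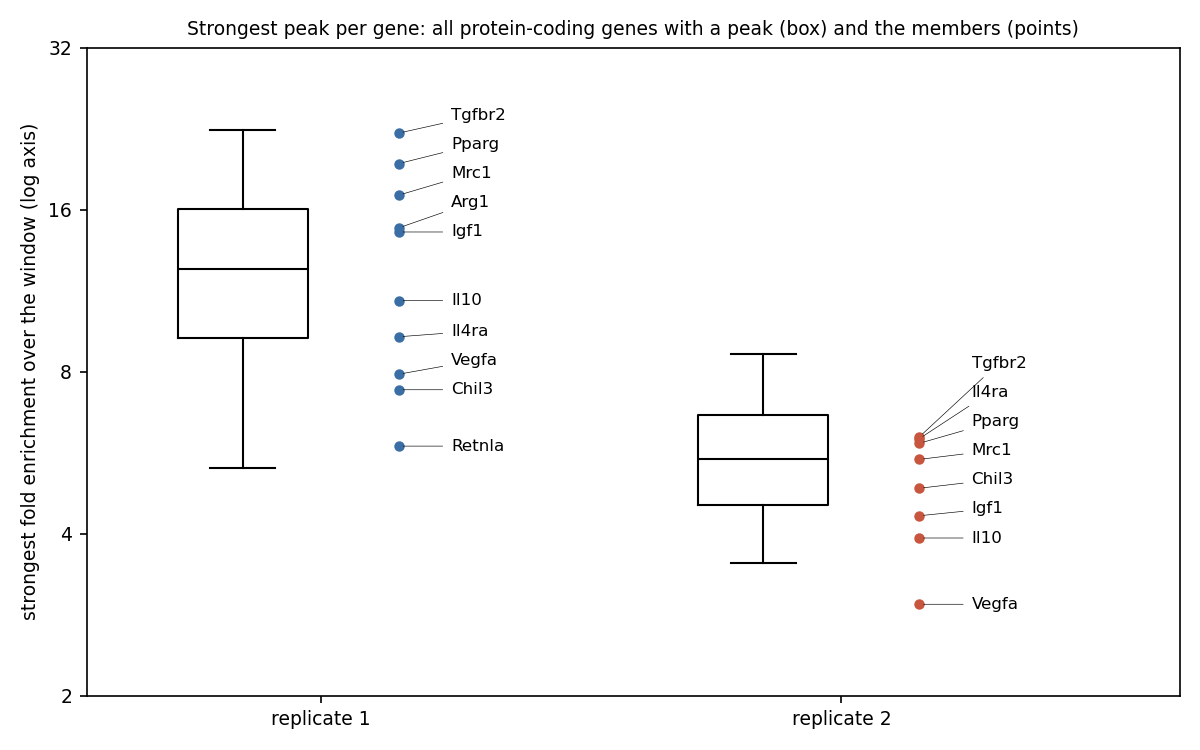
Strongest fold enrichment over each gene window, on a log axis. Boxes show the quartiles of all protein-coding genes with a peak, with whiskers at the percentiles 5 and 95, and points are the members. The members spread across the range of other genes in replicate 1 and lie from below the lower whisker (Vegfa, 2.96) to inside the box (Tgfbr2, 6.06) in replicate 2.

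By strongest peak the members as a group lay close to other genes. Their median was 12.7 in replicate 1 over all 10 and 5.18 in replicate 2 over the 8 with a peak, and over all protein-coding genes with a peak it was 12.4 and 5.50. In replicate 1 the order was Tgfbr2 (22.2), Pparg (19.5), Mrc1 (17.0), Arg1 (14.8), Igf1 (14.5), Il10 (10.8), Il4ra (9.29), Vegfa (7.92), Chil3 (7.41) and Retnla (5.82). In replicate 2 Tgfbr2 (6.06), Il4ra (6.01), Pparg (5.89) and Mrc1 (5.50) led, followed by Chil3 (4.86), Igf1 (4.32), Il10 (3.93) and Vegfa (2.96). Among the 8 genes with a peak in both lists, neighbours in either order differed by less than the gap between the replicates for those same genes. Arg1 and Retnla have no such gap. The gap also holds the difference in level between the lists, since replicate 1 had the higher value for each of the 8. It therefore does not measure how certain a rank within 1 list is. Tgfbr2, Pparg and Mrc1 were among the first 4 in both lists, while Arg1, next after them in replicate 1, was without a peak in replicate 2.

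Other genes of the same pathways were set beside the members from 5 lists. Of 57 genes, 57 had a peak in replicate 1 and 53 in replicate 2, beside 96.6% and 83% of all protein-coding genes. A shared peak was present in 37 (64.9%, against 63.5% of all protein-coding genes). Among interleukin 4 and 13 ligands, receptor chains and Janus kinases, 4 of 8 had a shared peak. The strongest were at Jak1, a receptor-associated kinase (17.3 and 7.26), Il13ra1, which pairs with the Il4ra chain (16.5 and 5.50), and the kinase gene Tyk2 (9.03 and 4.50). Transcription factors and cofactors had one in 8 of 12, led by Hif1a, the hypoxia-inducible factor (19.6 and 6.68, 2187 bp beyond the gene and over Gm15283), Stat3, which transmits interleukin 10 signals (13.8 and 6.09, a peak also over Gm46295), and the nuclear receptor gene Ppard (10.6 and 5.92). Effector, enzyme and lectin genes had one in 8 of 16. Slc7a2, a transporter of arginine, had 27.8 and 8.45, Odc1, which uses the ornithine made by arginase, had 16.7 and 6.23, and the scavenger receptor gene Msr1 had 12.2 and 5.89. A replicate 2 peak was present in 13 of the 16, beside 83% of all protein-coding genes. Retnlg, Ccl17 and Mmp12 had none, nor did Il2rg of the first list.

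Interleukin 10 and TGF-beta ligands, receptors and signal transducers had a shared peak in 9 of 11 cases, beside 63.5% of all protein-coding genes. The coreceptor gene Tgfbr3 had 15.3 and 7.02, the receptor gene Il10rb 9.82 and 5.97, and Smad4, the common mediator of TGF-beta signals, 17.5 and 5.64, in a peak that also touches 4930578L24Rik. Growth factor ligands and receptors had one in 8 of 10. Vegfc, a lymphatic growth factor, had 17.1 and 8.25, in a peak also over Gm33153, Igf2 10.8 and 5.96, 805 bp beyond the gene and over Igf2os, and Kdr, the main receptor of the Vegfa protein, 13.5 and 4.71, in a peak also over Gm32727. In 12 of these 15 genes the replicate 2 summit was within 1 kb of an annotated gene end. They were named for their high values, which are given as a description.

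The identity of the cells could not be checked from these lists, since Foxp3 peaks do not measure expression. A shared peak was present at 5 of 6 macrophage marker genes and at 3 of 6 T cell marker genes by the same window, beside 63.5% of all genes. An overlap of at least 1 bp was found at 5 and 4 of them, beside 75.9% of all genes. The difference between the lists was not tested.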

How the data were processed

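CUT&RUN libraries of 2 Foxp3 replicates were analysed, and the IgG library was not used here. Per the submitters' processing notes, CASAVA 1.4 and build mm10 were used, with the aligner not given in the sources used here. The authors called peaks library by library with paired-end MACS 2.1.1.20160309, per the file headers, using no control and a q-value cutoff of 0.01. A site that yields fragments with any antibody can therefore be listed. Pileup, as deposited, is a signal that counts fragments at the summit, unscaled for depth. The deposited fold enrichment is a ratio, pileup plus 1 over background plus 1. The background is that of the same library, genome-wide or within 10000 bp. The deposited significance is −log10 of the p-value and q-value. The fragment totals were 33294105 and 34898401.

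Gene positions and promoters came from RefSeq tables of GRCm38.p6 (mm10 coordinates), and promoter entries gave the strand for 8 members. Peaks touching the gene or 5000 bp beyond either end were counted (Python 3.11.15, pandas 2.3.3). Pairs were called shared at 50% of both lengths, and overlapping at 1 bp. Counting was tested on simulated data. The background plus 1 was taken as pileup plus 1 over fold. Members and lists were chosen with earlier results of these data known, so no test was run. Named were all members with their strongest and overlapping peaks and up to 3 genes of each of 5 pathway lists with the highest lower percentile of fold among shared peaks. Alternatives were other windows, stricter peaks, other overlap rules, replicate 1 cut to equal number and each replicate alone.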

Additional observations from a re-analysis of the deposited data

How the results depend on the processing

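Of 95 values recomputed under alternatives, 71 moved by no more than the spread between the replicates or 1.5 times the count. That spread is wide for coverage (SD 2.49 percentage points) and for median strongest fold enrichment (SD 5.32). It exceeds the replicate 2 values themselves (1.71% and 5.18), so no fall in these could count as moved. A fall in coverage to 3.12% in replicate 1 and 0.820% in replicate 2 with fold enrichment of at least 5 is among the 71. Cutting replicate 1 cannot change values of replicate 2 alone, and these are also among the 71. The percentages of all protein-coding genes were held to neither limit and are not among the 71. Their changes were small, for example from 63.5% to 65.9% for a shared peak. The count of 71 is thus no measure of stability. With −log10 q of at least 5, replicate 2 had 16 peaks over the members. With fold enrichment of at least 5, replicates 1 and 2 had 68 and 8 peaks, 4 members had a replicate 2 peak and 2 shared peaks were left, still over Mrc1 and Tgfbr2. With replicate 1 limited to as many peaks as replicate 2 holds, it had 19 peaks covering 1.16% of the windows by fold and 26 covering 1.61% by −log10 q. An overlap of 1 bp gave 5 members and 10 replicate 2 peaks, an overlap of 80% gave 1 member and 2 peaks, and summits within 100 bp gave 1 member and 2 peaks. Counting a single replicate gave 8 to 10 members and 25 to 133 peaks. Mrc1 and Tgfbr2 had a shared peak under all 8 changes of window, threshold or peak number, and Pparg joined them with windows of 10 kb. Among protein-coding genes with windows as long as the members', 98.4% had a replicate 1 peak, 87.4% a replicate 2 peak, 79.8% overlapping peaks, 65.9% a shared peak and 54.3% summits within 100 bp. No paired analysis was possible because only 1 group of libraries was analysed. Replicate 2 had fewer peaks from slightly more fragments (34898401 against 33294105), and the cause was not tested.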

Other observations

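Promoters with a peak in both libraries were set beside promoters at large. Of 32619 promoter entries, 10327 had a peak in both replicates, and their median content of G and C was 64.4%, against 52.4% of all entries. The forkhead word TGTTTAC was in 1.77% of the entries with a peak in both replicates and in 3.67% of all entries. The word TATTTAC, added after the sequences had been seen, was in 0.901% and 3.06%. The Stat6 word TTCNNNNGAA was in 4.19% and 6.99%, the AP-1 word TGANTCA in 3.84% and 7.85%, the PU.1 core GAGGAAG in 12.7% and 13.4%, and TTTGTTTGTTTG in 0.271% and 0.635%. The differences were not tested. The words themselves differ in base composition, and its part was not tested.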
